A study of Mus musculus with 12 samples.

Results

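The comparison described here sets induced spermatocytes (iSC) against induced differentiating spermatogonia (idSG), each represented by 2 RNA-seq libraries, which are 4 of the 12 libraries of the series. Both populations were derived in culture from spermatogonial stem cells (mSSC) of wild-type DBA/C57 F1 male mice aged 5-7 days, and the libraries were chosen by their sample titles. The stem cells carried GFP and were grown on Sertoli cells from pups whose division had been blocked with mitomycin. iSC were taken on day 6 of induction as cells positive for GFP and negative for c-KIT, and idSG on day 3, by FACS, as cells positive for both. The agent used for induction is not given in the sources used here. The iSC gate is negative for c-KIT, and undifferentiated spermatogonia also lack c-KIT, so the gate alone does not separate spermatocytes from such cells. Uninduced mSSC (2 libraries) supplied baseline levels, and mSSC given 100 nM retinoic acid (RA) or vehicle for 24 h on laminin (2 libraries each) supplied an independent view of RA-dependent genes. A further 2 libraries, of mSSC given RA with cycloheximide (0.25 mg/ml), entered the fit of RA against vehicle but not its contrast.

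Spermatogonia that receive RA become c-KIT-positive differentiating cells and divide a set number of times before meiosis. The product of Stra8 starts the meiotic programme during the last DNA replication. Stra8 RNA was also raised by RA in mSSC, as given below, so its level alone is not read here as meiotic onset. In leptotene and zygotene the chromosomes form axes made of cohesins, HORMA-domain and SYCP proteins, and SPO11 cuts the DNA at sites marked by PRDM9. The breaks are then repaired by strand exchange between homologues, and the X and Y chromosomes are silenced later, in pachytene. RA is removed by CYP26 enzymes, whose genes are themselves induced by RA.

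Values are FPKM, fragments scaled to transcript length and to library size, and how library size was set is not given in the sources used here. Sums of FPKM per library were 459580 and 503875 in iSC and 529583 and 490584 in idSG, and the read depth behind them is unknown. Fold changes are on the log2(FPKM + 1) scale, which understates the change of genes near 0. Called means an adjusted p (limma, Benjamini-Hochberg) below 0.05, and such p-values cover just the spread of these libraries, since nothing says that the replicates came from separate animals. Replicates correlated across genes at r = 0.964 in iSC and 0.974 in idSG, where genes are not independent. On the log2(FPKM + 1) scale, 482 genes in iSC and 437 in idSG differed more than 2-fold between replicates. In bulk RNA, fewer cells of a type and less RNA per cell cannot be told apart.

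Of 12576 genes tested, 604 were called higher in iSC (4.8%) and 889 lower (7.07%). Counts of called members in the gene lists below are to be read against these shares. Changes of at least 2-fold were called for 332 higher genes (2.64%) and 248 lower genes (1.97%). The median log2 fold change over all genes tested was -0.04. With libraries scaled by median ratios, 53.9% of the calls were higher in iSC, against 40.5% without further scaling. The number of calls depended on the libraries fitted: 1493 genes were called with all 6 induction libraries, 147 and 1607 without iSC replicate 1 or 2, and 10 and 1063 without idSG replicate 1 or 2. Without mSSC replicate 1 or 2, which enter the fit but not the contrast, 245 and 239 were called, and each library left out also removes a residual degree of freedom. Over the libraries of iSC and idSG left out in turn, the log2 fold change of Prdm9 ranged from 2.70 to 3.51 and that of Cyp26a1 from -3.97 to -3.79. Of 99 called genes named by rule or by list, none changed direction in any setting tried. Where the groups do not overlap, leaving out 1 library cannot reverse a direction. Settings that changed only the mSSC or treatment libraries fitted, the block or the prior left the estimate as it was. The constant direction is therefore no support for the calls. With 2 libraries in each group, separate groups are also common. Of 80 oxidative phosphorylation genes, 43 lay wholly lower in iSC and 7 wholly higher. Separation of the groups is therefore given below as a description, and its share over all genes tested is not given here.

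Kit encodes the receptor used for sorting, so its transcript checks the gate and is no result. Kit had 9.75 and 4.04 FPKM in iSC, against 105 and 65.9 FPKM in idSG. The iSC libraries were both far below the idSG libraries, as the labels of the sort state (log2 fold change -3.52 ± 0.38 SE, adjusted p = 0.0115). Germ cell identity genes were abundant in every library. The RNA helicase gene Ddx4 had 145 and 148 FPKM in iSC and 192 and 145 FPKM in idSG, and Dazl, an RNA-binding regulator of germ cells, had 622 and 451 FPKM in iSC and 571 and 409 FPKM in idSG. Neither gene was called, and the sign of both estimates depended on single libraries.

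**Figure D1:**
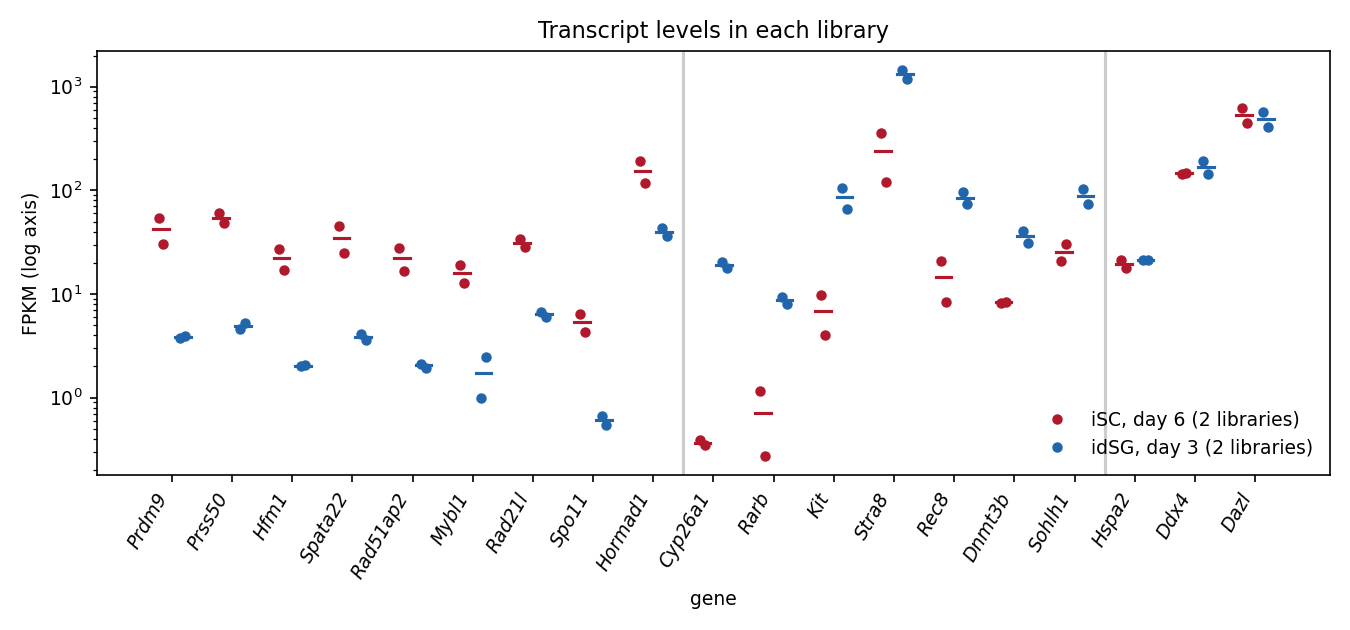
FPKM on a log axis for 19 genes in each library, iSC in red and idSG in blue, with points for the 2 libraries of each group and bars for their means. From left to right stand 9 genes called higher in iSC, 7 called lower and 3 not called; Prdm9 had 54.5 and 30.5 FPKM in iSC, against 3.80 and 3.93 FPKM in idSG.

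The genes of meiotic recombination gave some of the largest rises. Prdm9, the histone methyltransferase that marks recombination sites, had 54.5 and 30.5 FPKM in iSC, against 3.80 and 3.93 FPKM in idSG, an 11.0-fold difference of means. Both iSC libraries lay well above both idSG libraries, and the log2 fold change was 3.10 ± 0.28 (SE, adjusted p = 0.00693). In uninduced mSSC the gene had 0.975 and 0.857 FPKM. Spo11, which encodes the enzyme that cuts the DNA, had 6.44 and 4.27 FPKM in iSC and 0.672 and 0.539 FPKM in idSG. It rose with a log2 fold change of 1.96 ± 0.24 (adjusted p = 0.0157), and the groups did not overlap. Of 6 break-formation genes tested, these 2 were called higher and none lower, with a median log2 fold change of 0.51. The break-complex genes Mei1 and Mei4 had 8.14 and 5.27, and 5.79 and 5.00 FPKM in iSC, against 5.21 and 4.67, and 4.49 and 3.35 FPKM in idSG, and were not called.

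Among 12 strand-exchange genes, 3 were called higher and 1 lower (median log2 fold change 0.25). Spata22, which encodes a partner of the single-strand DNA binding protein MEIOB, had 45.2 and 24.8 FPKM in iSC, against 4.11 and 3.58 FPKM in idSG. Rad51ap2 had 27.7 and 16.6 FPKM in iSC, against 2.13 and 1.95 FPKM in idSG. Their log2 fold changes of 2.84 ± 0.28 and 2.89 ± 0.28 were larger than that of the meiotic recombinase gene Dmc1, which had 71.5 and 42.6 FPKM in iSC and 25.7 and 23.5 FPKM in idSG (1.14 ± 0.25, adjusted p = 0.038). In these 3 genes both iSC libraries exceeded both idSG libraries, and iSC replicate 1 was the higher. Psmc3ip, which encodes the DMC1 cofactor HOP2, fell to 21.8 and 21.4 FPKM in iSC, against 38.0 and 31.0 FPKM in idSG (log2 fold change -0.64 ± 0.15, adjusted p = 0.0415).

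Of 10 crossover genes, 1 was called higher, against 4.8% of all genes, and none lower (median log2 fold change 0.20). That gene was Hfm1, a meiotic helicase gene, with 27.1 and 17.03 FPKM in iSC, against 2.00 and 2.08 FPKM in idSG (2.89 ± 0.26, adjusted p = 0.0071). Msh4 and Msh5, whose products form the clamp that stabilizes crossover intermediates, had 9.21 and 4.45, and 9.90 and 6.04 FPKM in iSC, against 2.82 and 2.64, and 3.35 and 3.53 FPKM in idSG. Their groups did not overlap, but both missed the threshold (adjusted p = 0.0725 and 0.0504). Of 4 genes for attaching telomeres to the nuclear envelope, 2 were called higher. Ccdc79, now named Terb1, had 16.4 and 9.84 FPKM in iSC and 1.67 and 3.26 FPKM in idSG, and Spdya, which encodes the CDK2 activator Speedy A, had 16.6 and 10.3 FPKM in iSC and 2.66 and 1.98 FPKM in idSG. Without iSC replicate 1 neither telomere gene was called, at log2 fold changes of 1.69 for Ccdc79 and 1.77 for Spdya, against 2.03 and 2.09 with all libraries. Without idSG replicate 1 neither was called either, at 1.69 and 2.24.

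Chromosome axis and synaptonemal complex genes rose as well. Of 10 genes, 6 were called higher and none lower, with a median log2 fold change of 1.08, against -0.04 over all genes tested. Hormad1, a sensor of unsynapsed axes, had 191 and 117 FPKM in iSC and 43.2 and 36.2 FPKM in idSG (log2 fold change 1.89 ± 0.23, adjusted p = 0.0157). Tex12, of the central element, had 174 and 106 FPKM in iSC, against 40.0 and 26.6 FPKM in idSG. The central element gene 4930447C04Rik, now named Six6os1, had 176 and 115 FPKM in iSC, against 37.4 and 33.2 FPKM in idSG. The lateral element genes Sycp2 and Sycp3 had 121 and 75.2, and 491 and 284 FPKM in iSC, against 34.9 and 29.8, and 195 and 135 FPKM in idSG. Both groups were separate for all of these genes, with iSC replicate 1 above iSC replicate 2 throughout. Sycp1, the transverse filament gene, had 209.8 and 141 FPKM in iSC and 116 and 92.9 FPKM in idSG and was not called (adjusted p = 0.0647). Without iSC replicate 1, 3 of the 10 genes were called (median 0.74), and without iSC replicate 2, 7 (median 1.41). Without idSG replicate 1 none was called while the median was 1.32, and without idSG replicate 2, 4 were called (median 0.83).

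Cohesin subunits split in direction. Rad21l, a meiosis-specific kleisin gene, rose to 33.9 and 28.5 FPKM in iSC, against 6.72 and 6.00 FPKM in idSG (log2 fold change 2.13 ± 0.20, adjusted p = 0.00774). Smc1b rose to 272 and 192 FPKM in iSC, against 127 and 103 FPKM in idSG. Rec8, the other meiotic kleisin gene, fell to 20.98 and 8.33 FPKM in iSC, against 96.0 and 74.5 FPKM in idSG (-2.58 ± 0.37, adjusted p = 0.0187). Stag3, which encodes a further meiotic subunit, had 223 and 115 FPKM in iSC, and its values of 187 and 160.1 FPKM in idSG lay between them. None of 5 mitotic cohesin genes was called.

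Regulators of meiotic entry and of transcription, kept in 1 list, also went both ways. Stra8 remained abundant but fell to 358 and 121 FPKM in iSC, against 1449.7 and 1191 FPKM in idSG (log2 fold change -2.65 ± 0.49, adjusted p = 0.0271). Its levels in mSSC were 11.7 and 6.27 FPKM, so both iSC libraries stood between the other stages. Mybl1, which encodes the transcription factor A-MYB needed in pachytene, had 19.15 and 12.7 FPKM in iSC, against 0.998 and 2.44 FPKM in idSG (2.66 ± 0.32, adjusted p = 0.0155). Gm1564, now named Meioc, had 87.0 and 53.1 FPKM in iSC and 17.8 and 15.97 FPKM in idSG, and Ythdc2, whose product acts with MEIOC on meiotic transcripts, had 26.3 and 16.7 FPKM in iSC and 8.08 and 8.45 FPKM in idSG. Of 15 regulators of either kind tested, 5 were called higher (these 3, Crem and Mga) and 3 lower (Stra8, Rbm46 and Tcfl5). These counts are therefore not read as meiotic entry. Without iSC replicate 1 none of the 15 was called higher and 1 was called lower, with a list median of 0.50, against 0.63 with all libraries. Mybl1 and Gm1564 then had log2 fold changes of 2.38 and 1.60, against 2.66 and 1.95 with all libraries. Without idSG replicate 1 none of the 15 was called, with a median of 0.56. The damage-signalling kinase genes Atr and Atm also rose, with log2 fold changes of 1.21 ± 0.19 and 0.89 ± 0.17, as the only called members of 12 silencing and damage-signalling genes.

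Later stages were checked as limits of the label. Of 26 genes of pachytene spermatocytes, 16 passed the filter on low values. Among these 1 was called higher, against 4.8% of all genes, and none lower (median log2 fold change -0.26). The called gene was Cdkl2, a kinase gene, with 14.2 and 8.87 FPKM in iSC and 4.52 and 5.10 FPKM in idSG. The 26 genes summed to 137 and 122 FPKM in iSC, against 168 and 139 FPKM in idSG. Single members ranged widely: the linker histone gene Hist1h1t had 0.0864 and 0.0782 FPKM in iSC, and Ccna1, the meiotic cyclin A gene, had 0.268 and 0.201 FPKM in iSC. Hspa2, a chaperone gene used as a pachytene marker, had 21.1 and 18.0 FPKM in iSC and 21.5 and 21.1 FPKM in idSG. Of 19 spermatid genes, 5 passed the filter, and the protamine gene Prm1 had 0 and 0.299 FPKM in iSC. Of 19 genes of the piRNA pathway, which protects germ cells from transposons, none was called higher and 2 lower, Piwil2 and Pld6 (median log2 fold change -0.28). So few calls, against 7.07% of all genes called lower, show no change of the pathway as a set.

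**Figure D2:**
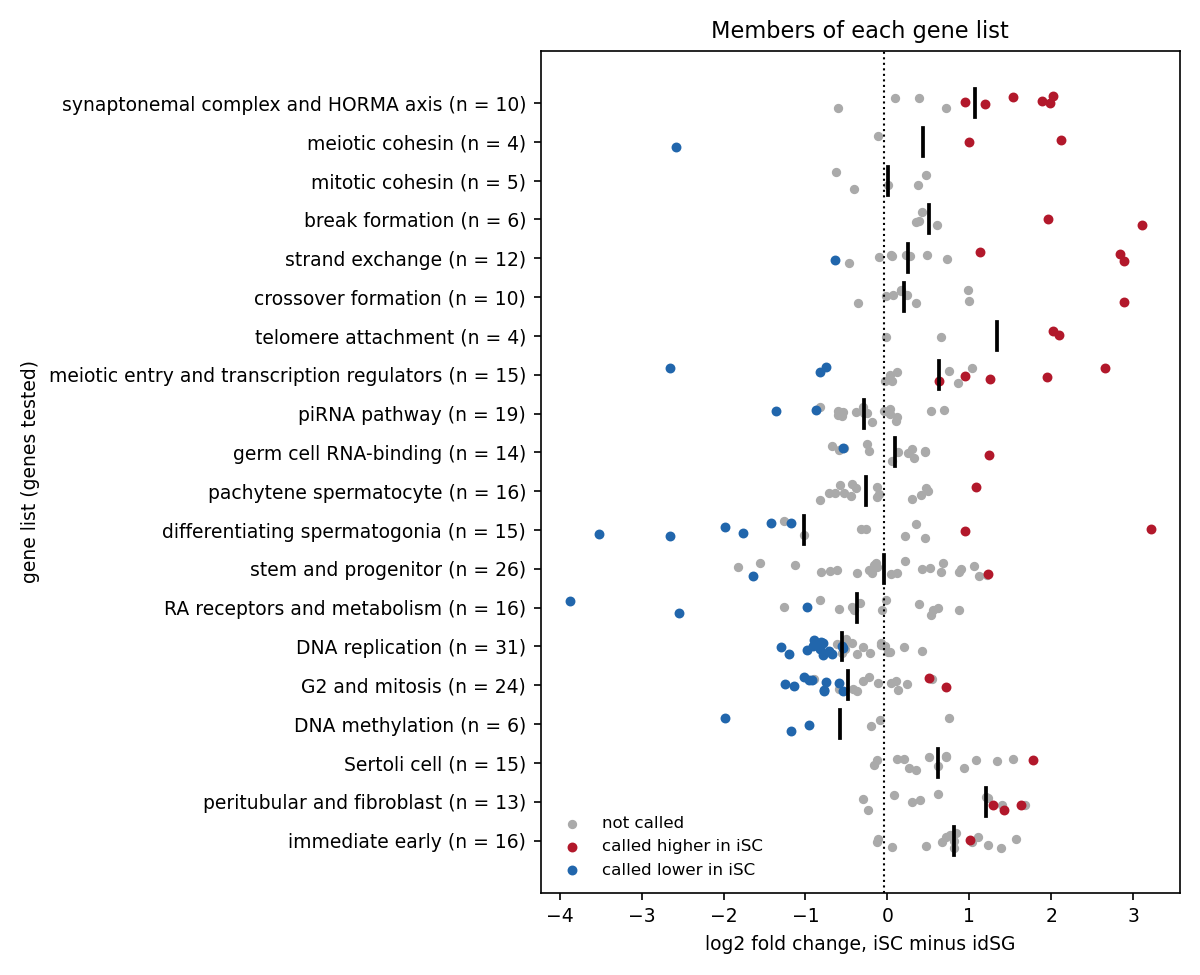
Log2 fold change, iSC minus idSG, of each tested gene in 20 gene lists, with called genes in colour, a black bar at each list's median and a dotted line at the median of all genes tested (-0.04). The synaptonemal complex list has 6 of 10 genes called higher and the DNA replication list 14 of 31 called lower.

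Several markers of differentiating spermatogonia fell. Of 15 such genes, 6 were called lower and 2 higher (median log2 fold change -1.02), and Kit, the sorted marker, is 1 of the 6. Sohlh1, a transcription factor gene of spermatogonia, had 20.8 and 30.4 FPKM in iSC, against 103 and 74.5 FPKM in idSG (log2 fold change -1.76 ± 0.25, adjusted p = 0.0185). Dmrt1, whose product holds back meiotic entry in mouse spermatogonia, had 66.9 and 85.1 FPKM in iSC, against 244 and 171 FPKM in idSG (-1.43 ± 0.21). The de novo DNA methyltransferase gene Dnmt3b had 8.12 and 8.45 FPKM in iSC, against 40.9 and 31.1 FPKM in idSG (-1.98 ± 0.17, adjusted p = 0.00628). All 3 were separate between groups. The maintenance methylation genes Dnmt1 and Uhrf1 fell as well, to 69.1 and 65.1, and 42.9 and 54.0 FPKM in iSC, against 138 and 125, and 119 and 102 FPKM in idSG. The 2 members called higher were Ccnd2, a G1 cyclin gene, and Prss50, a testis protease gene with 60.4 and 48.1 FPKM in iSC and 4.59 and 5.26 FPKM in idSG (3.22 ± 0.19, adjusted p = 0.0015).

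Many DNA replication and division genes fell. Of 31 replication genes, none was called higher and 14 lower, with a median log2 fold change of -0.55. The licensing gene Cdt1 had 14.6 and 22.9 FPKM in iSC, against 51.7 and 41.9 FPKM in idSG, and the helicase gene Mcm2 had 51.0 and 63.1 FPKM in iSC, against 147 and 118 FPKM in idSG. Of 24 genes of G2 and mitosis, 10 were called lower and 2 higher (median -0.48). Ccnb1, the mitotic cyclin B gene, had 47.9 and 65.9 FPKM in iSC and 137 and 113 FPKM in idSG, and Aurkb, a kinase gene of chromosome segregation, had 9.52 and 17.8 FPKM in iSC and 36.4 and 28.8 FPKM in idSG. The kinetochore genes Bub1 and Cenpf were the 2 called higher, at log2 fold changes of 0.72 ± 0.17 and 0.51 ± 0.12. Other cyclin genes went the other way: Ccne2, of the G1/S transition, rose to 33.5 and 22.0 FPKM in iSC, against 8.82 and 7.78 FPKM in idSG, and Ccnb3, a cyclin of early meiosis in mouse, to 42.9 and 24.6 FPKM in iSC, against 4.04 and 2.97 FPKM in idSG. Without iSC replicate 1 none of the replication or the mitosis genes was called, while the list medians were -0.52 and -0.44.

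**Figure D3:**
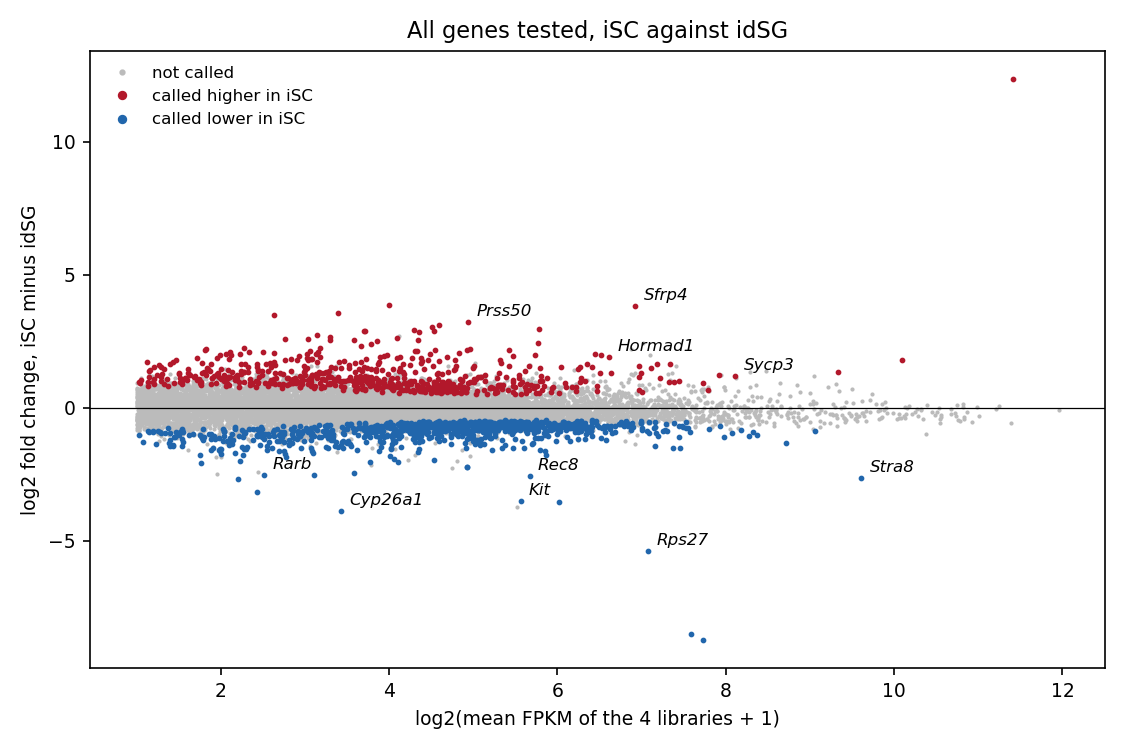
Log2 fold change, iSC minus idSG, against log2 of the mean FPKM of the 4 libraries plus 1, for 12576 genes, with 604 called higher in red and 889 called lower in blue. The single point at the top and the lowest pair are small nucleolar RNA genes, and Rps27 is the next lowest; Stra8, at the right, stays abundant while lower in iSC.

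Among RA pathway genes, the RA-inducible Cyp26a1 and Rarb fell. Cyp26a1, which encodes an RA-degrading enzyme, had 0.386 and 0.347 FPKM in iSC, against 20.3 and 18.0 FPKM in idSG, a 52.2-fold difference of means. Its iSC levels were close to the 0.619 and 0.452 FPKM of mSSC, and the log2 fold change was -3.88 ± 0.19 (adjusted p = 0.000776). Rarb, an RA receptor gene, had 1.16 and 0.276 FPKM in iSC, against 9.35 and 8.02 FPKM in idSG (-2.54 ± 0.28, adjusted p = 0.0128). Dhrs3, a retinaldehyde reductase gene, fell to 4.80 and 6.81 FPKM in iSC, against 11.0 and 13.7 FPKM in idSG. None of 16 tested genes of RA receptors and metabolism was called higher, and these 3 were called lower (median -0.37). The receptor gene Rara, with 9.31 and 10.4 FPKM in iSC and 12.2 and 15.4 FPKM in idSG, and the RA-producing enzyme gene Aldh1a1, with 785 and 841 FPKM in iSC and 335 and 582 FPKM in idSG, were not called. Aldh1a1 had 0.702 and 0.569 FPKM in mSSC, and the part of Sertoli cell RNA in its iSC and idSG levels was not tested.

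Promoters are printed for 5 genes called at least 2-fold changed, picked because their windows hold a motif searched for; other genes with larger changes are left out. The windows of Kit, Stra8 and Rec8 held none of the motifs given here. They run from 250 bases before to 50 bases after a RefSeq start on GRCm38.p6, 5′ to 3′ on the gene's strand, in a later build than the mm9 used for the expression values. Capitals mark the motif CNCCTCAG, reported for STRA8, on either strand in Prdm9 (its second listed start) and Hfm1, and a retinoic acid DR5 element, a pair of half-sites 5 bases apart, in Cyp26a1, Rarb and the second listed start of Blvrb.
Prdm9, chr17:15564305-15564604, minus strand: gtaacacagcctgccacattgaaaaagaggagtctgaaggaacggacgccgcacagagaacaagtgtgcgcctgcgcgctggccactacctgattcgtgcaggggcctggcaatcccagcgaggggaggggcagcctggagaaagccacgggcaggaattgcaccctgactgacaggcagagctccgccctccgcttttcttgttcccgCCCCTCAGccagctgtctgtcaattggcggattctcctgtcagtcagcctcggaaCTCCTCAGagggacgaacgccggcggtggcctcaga
Hfm1, chr5:106925841-106926140, minus strand: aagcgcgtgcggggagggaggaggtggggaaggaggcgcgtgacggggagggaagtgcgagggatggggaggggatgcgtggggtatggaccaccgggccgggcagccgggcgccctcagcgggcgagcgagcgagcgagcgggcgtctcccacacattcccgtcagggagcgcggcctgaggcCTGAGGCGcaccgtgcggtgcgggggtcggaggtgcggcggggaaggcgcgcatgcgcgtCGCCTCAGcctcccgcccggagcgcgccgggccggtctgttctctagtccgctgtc
Cyp26a1, chr19:37697558-37697857, plus strand: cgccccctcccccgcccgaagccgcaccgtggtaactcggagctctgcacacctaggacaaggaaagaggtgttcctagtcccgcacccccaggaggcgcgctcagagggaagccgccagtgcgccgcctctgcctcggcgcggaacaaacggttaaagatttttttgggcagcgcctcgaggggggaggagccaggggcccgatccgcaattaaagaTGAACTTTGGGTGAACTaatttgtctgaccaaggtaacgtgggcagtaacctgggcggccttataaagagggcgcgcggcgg
Rarb, chr14:16575427-16575726, minus strand: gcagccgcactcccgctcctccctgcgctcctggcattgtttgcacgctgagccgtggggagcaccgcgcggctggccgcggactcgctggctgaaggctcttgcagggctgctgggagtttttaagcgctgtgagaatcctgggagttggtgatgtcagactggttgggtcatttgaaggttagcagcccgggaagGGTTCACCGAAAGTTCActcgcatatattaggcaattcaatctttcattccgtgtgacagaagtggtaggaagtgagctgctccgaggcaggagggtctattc
Blvrb, chr7:27452168-27452467, plus strand: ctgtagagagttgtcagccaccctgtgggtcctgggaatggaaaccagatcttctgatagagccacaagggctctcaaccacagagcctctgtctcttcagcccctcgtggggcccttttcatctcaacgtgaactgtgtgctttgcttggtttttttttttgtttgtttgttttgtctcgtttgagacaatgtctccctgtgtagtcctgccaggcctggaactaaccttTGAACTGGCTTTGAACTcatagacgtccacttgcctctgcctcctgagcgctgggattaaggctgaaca

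Of 12576 genes tested, 10041 had a promoter in the RefSeq table. The STRA8 motif CNCCTCAG occurred on either strand in 12.9% of the genes at least 2-fold higher in iSC and in 15.8% of those at least 2-fold lower, against 11.3% of all 10041. In the Prdm9 window it begins 41 bases before and 14 bases after the start, and in Hfm1 it begins 66 and 6 bases before the start. The A-MYB motif AACGGT was in 4.84% of the higher and 9.04% of the lower genes, against 4.79% of all. The E-box CACGTG was in 11.3% of both sets, against 12.2% of all, and the CRE motif TGACGTCA in 0.806% of the higher and 2.82% of the lower genes, against 3.68% of all. The DR5 element, a search chosen after the values were seen, was in 3 of the 177 promoters of genes at least 2-fold lower in iSC (1.69%), against 3 of all 10041 (0.0299%), which are the same 3 genes. The third, Blvrb, encodes biliverdin reductase B and had 5.00 and 3.44 FPKM in iSC, against 27.3 and 15.1 FPKM in idSG (log2 fold change -2.05 ± 0.33). A match of letters is a description of the window and shows no binding.

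RA-dependent genes were then read in libraries that share nothing with these 4. In mSSC given RA for 24 h, 2809 genes were called higher than in vehicle (22.8% of 12320 tested) and 3719 lower (30.2%), of which 41 (0.333%) and 130 (1.06%) changed at least 2-fold. Of the 41 genes at least 2-fold higher with RA, 36 were tested in iSC against idSG, where 13 were called lower (36.1%, against 7.07% of all genes) and 3 higher (8.33%), with a median log2 fold change of -0.68. The overlap with genes at least 2-fold lower in iSC was 11, or 4.44% of those 248. Kit, the sorted marker, is among both the 13 and the 11. Of the 130 genes at least 2-fold lower with RA, 96 were tested, with a median of 0.45. In iSC, 6 were called higher (6.25%, near the 4.8% of all genes) and 1 lower (1.04%, against 7.07%).

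Stra8 had 537 and 584 FPKM with RA, against 22.9 and 24.4 FPKM with vehicle, and Rec8 had 36.8 and 38.3 FPKM with RA, against 8.14 and 9.19 FPKM with vehicle. Both were higher with RA and lower in iSC than in idSG. Ly6k, a surface protein gene of germ cells, was the member of the RA set with the largest rise in iSC, at 114 and 69.3 FPKM, against 14.9 and 16.2 FPKM in idSG (log2 fold change 2.44 ± 0.25, adjusted p = 0.00976). Prdm9 had 2.76 and 2.97 FPKM with RA, against 0.896 and 1.11 FPKM with vehicle, and Hormad1 had 15.4 and 17.7 FPKM with RA and 14.05 and 16.3 FPKM with vehicle.

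**Figure D4:**
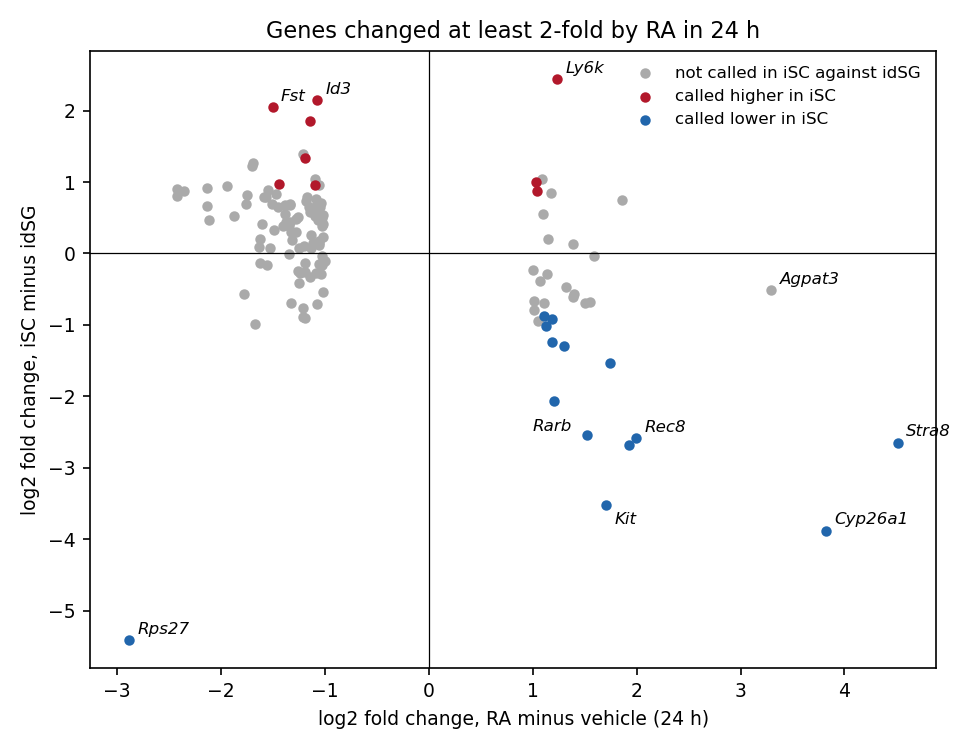
Log2 fold change, iSC minus idSG, against log2 fold change, RA minus vehicle after 24 h, for the 36 genes at least 2-fold higher with RA (right) and the 96 at least 2-fold lower with RA (left) that were tested in both. Stra8, Cyp26a1, Rec8, Kit and Rarb lie at the lower right, and Ly6k at the upper right.

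The 2 iSC libraries differed in stem and progenitor genes. Of 26 such genes tested, 21 were at least 2-fold higher in iSC replicate 2 than in iSC replicate 1, against 628 of all 12576 genes. These 2 counts are on FPKM without the added 1, so genes near 0 count more easily. Gfra1, the GDNF receptor gene of stem cells, had 1.23 and 21.7 FPKM in iSC, against 19.12 and 20.9 FPKM in idSG and 114 and 82.0 FPKM in mSSC. Zbtb16, a progenitor transcription factor gene, had 3.76 and 32.2 FPKM in iSC, against 14.9 and 11.0 FPKM in idSG. In both genes the idSG values lay within the span of the iSC values, and neither was called. Of the 26 genes, 1 was called higher (Shisa6) and 1 lower (Sall4), and the median log2 fold change was -0.04. That median was 0.04 with median-ratio scaling and 0.02 with quantile normalization, 0.89 without iSC replicate 1 and -0.67 without iSC replicate 2, when 9 of the 23 genes still tested were called lower. The heat-shock genes Hspa1a and Hspa1b had 5.28 and 439.5, and 8.82 and 484 FPKM in iSC, against 10.6 and 10.3, and 11.1 and 12.4 FPKM in idSG. All 16 immediate early genes were higher in iSC replicate 2 than in replicate 1, and 9 of 10 synaptonemal complex genes were lower. The part of these differences between replicates in the results was not tested beyond leaving out each library.

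**Figure D5:**
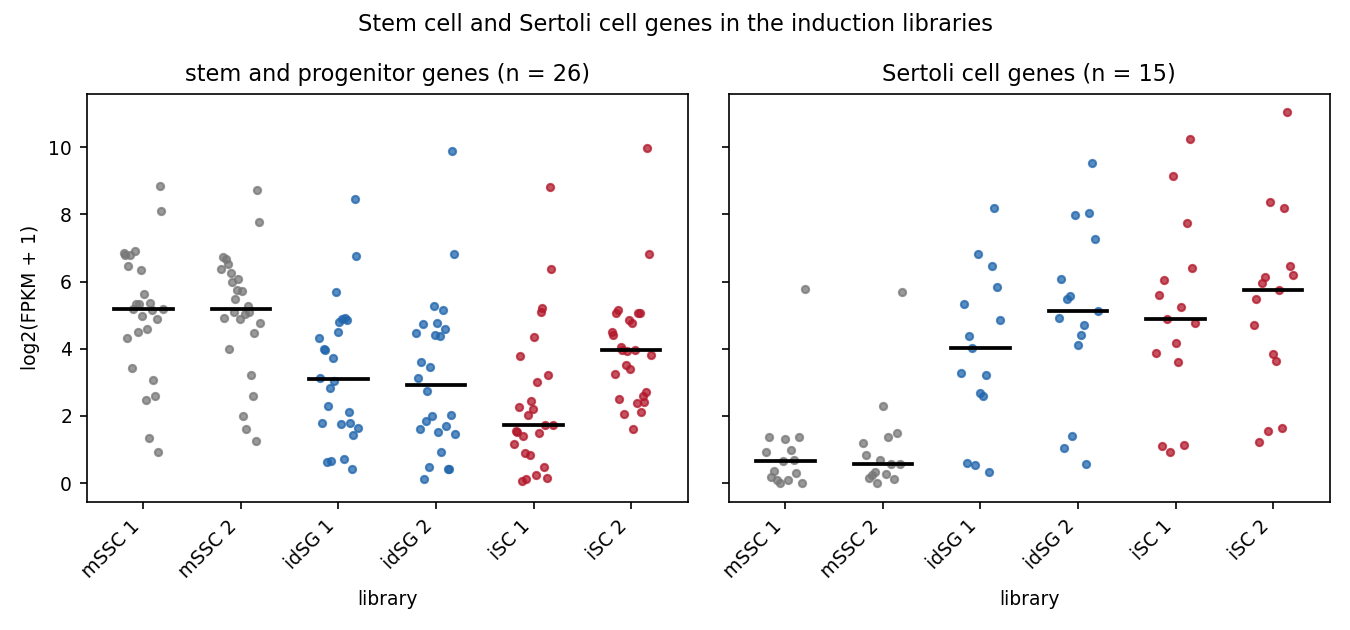
Log2(FPKM + 1) of 26 stem and progenitor genes (left) and 15 Sertoli cell genes (right) in each library of mSSC, idSG and iSC, with a bar at the median. Stem cell genes are lowest in iSC replicate 1, and Sertoli cell genes are near 0 in mSSC apart from Trf and high in the idSG and iSC libraries.

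Transcripts of the feeder cell type were present in both sorted populations. The summed level of 18 Sertoli cell genes was 2318 and 3172 FPKM in iSC, against 680 and 1695 FPKM in idSG, and 62.7 FPKM in each mSSC library. Of the 15 tested, 1 was called higher, against 4.8% of all genes. It was the secreted chaperone gene Clu, with 1212 and 2111 FPKM in iSC and 292 and 743 FPKM in idSG. Clu alone is a large part of the iSC and idSG sums. Sox9 and Wt1, which define Sertoli cells, had 13.7 and 25.3, and 47.6 and 43.8 FPKM in iSC, against 8.76 and 29.1, and 39.0 and 66.8 FPKM in idSG, and the groups overlapped. The list's median log2 fold change was 0.62, but -0.05 without idSG replicate 1. On FPKM without the added 1, 11 of the 15 genes were at least 2-fold higher in idSG replicate 2 than in idSG replicate 1. The same held for 680 of all 12576 genes. Peritubular and fibroblast genes summed to 1756 and 1427 FPKM in iSC and 888 and 1252 FPKM in idSG, with 3 of 13 called higher, Acta2, Cnn1 and Igf1. Endothelial genes summed to 2.45 and 2.19 FPKM in iSC and 3.21 and 2.38 FPKM in idSG, and macrophage genes to 17.2 and 16.2 FPKM in iSC and 29.6 and 8.35 FPKM in idSG. Of the 332 genes at least 2-fold higher in iSC, 128 (38.6%) averaged under 1 FPKM in mSSC, against 14 of the 248 lower genes (5.65%). The filter used only the iSC and idSG libraries, so higher genes could pass it through iSC alone. That part of the contrast is set by the filter, and the contrast shows no source of the RNA. The meiotic gene Prdm9, with 0.975 and 0.857 FPKM in mSSC, is also among the 128. The sort gated on GFP, which the feeders are not stated to carry, and the part of feeder RNA in these counts was not tested.

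Several of the leading genes are in none of the germ cell lists used here, which does not mean that germ cells lack their transcripts. Sfrp4, a secreted Wnt inhibitor gene, had 174 and 279 FPKM in iSC, against 16.9 and 13.0 FPKM in idSG and 0.0662 and 0 FPKM in mSSC (log2 fold change 3.81 ± 0.25, adjusted p = 0.00259). The chemokine gene Cxcl5 had 31.3 and 26.7 FPKM in iSC and 0.890 and 1.30 FPKM in idSG. Odz4, a teneurin gene, and Pcsk5, a proprotein convertase gene, rose by log2 fold changes of 3.54 ± 0.24 and 2.89 ± 0.23. Among the 10 highest with a mean of at least 5 FPKM stood also Fbxo47, an F-box gene, with 47.2 and 32.6 FPKM in iSC and 4.02 and 3.71 FPKM in idSG, and the epoxide hydrolase gene Ephx2, with 108 and 84.8 FPKM in iSC and 12.9 and 9.81 FPKM in idSG. Amd1, Rps27, Hist1h2ao and Hist1h2ag were also among the leading genes, but they belong to families with near-identical copies, between which reads may have been split; this was not tested, and their values are uncertain. Among the lowest, Rab11fip4, an endosome trafficking gene, had 8.56 and 11.2 FPKM in iSC, against 52.6 and 45.6 FPKM in idSG (-2.21 ± 0.16, adjusted p = 0.00395). Crxos1, a homeobox gene, had 1.47 and 1.53 FPKM in iSC, against 16.7 and 10.9 FPKM in idSG.

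X-linked genes were called higher in iSC more often than lower. Of 537 X-linked genes, 36 were called higher (6.7%) and 17 lower (3.17%), against 563 (4.71%) and 865 (7.24%) of 11945 autosomal genes. The median log2 fold change was 0.07 for X-linked and -0.04 for autosomal genes, and the X-linked median was -0.02 without iSC replicate 1. X-linked genes other than small RNA genes held 3.77% and 3.31% of the summed FPKM of all genes tested, small RNA genes included, in iSC, against 3.18% and 3.08% in idSG. Ccnb3 and Rhox10 are X-linked, and the homeobox gene Rhox10 went the other way, with 4.30 and 7.42 FPKM in iSC and 31.2 and 22.0 FPKM in idSG (log2 fold change -2.03 ± 0.27).

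Genes of housekeeping machinery had few calls. Those calls were lower in iSC more often than higher, also with median-ratio and quantile scaling. Of 85 cytosolic ribosomal protein genes none was called higher and 1 lower (median log2 fold change -0.25), the 1 being Rps27, whose values are uncertain. Of 80 oxidative phosphorylation genes none was called higher and 8 lower (median -0.22), and of 38 proteasome genes none was called higher and 2 lower (median -0.28). Of 76 mitochondrial ribosomal protein genes, 1 was called higher and 7 lower (median -0.24). Their share of lower calls can be read against 7.07% of all genes.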

How the data were processed

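DNase-treated total RNA was sequenced on an Illumina instrument, per the labels' protocols. The deposited values are FPKM per gene, computed by the authors with TopHat2 2.0.6 and Cuffdiff on mm9, per the submitters' processing notes (for Cuffdiff, neither version nor scaling is given in the sources used here). Read depth is unknown. From the spacing of the lowest values, depth relative to iSC replicate 1 was 111% in iSC replicate 2, 118% in idSG replicate 1 and 107% in idSG replicate 2. Any scaling between libraries would also enter these percentages.

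FPKM of genes with a mean of at least 1 over the iSC and idSG libraries were tested on log2(FPKM + 1) in R 4.3.3 with limma 3.58.1, with no further scaling. The 6 libraries of mSSC, idSG and iSC shared 1 fit by group, which left 3 residual degrees of freedom, with a trended eBayes prior, and p-values were adjusted by Benjamini-Hochberg over all genes tested. RA against vehicle was fitted in the same way, in 6 libraries. These were the RA and vehicle libraries and the 2 given RA with cycloheximide, which share the estimate of spread. Tables and figures used Python 3.11.15 with pandas 2.3.3, numpy 2.4.6 and matplotlib 3.10.9. The fit was tested on simulated data. Named genes were the 10 largest called changes each way that averaged 5 FPKM or more and had separate groups, small RNA genes and unnamed models left out, with called members of the lists and genes fixed by name. The comparison and the 41 gene lists were chosen with earlier results of these data known. Chromosomes came by symbol from GRCm38 annotation, which held 98.9% of 22549 symbols. Alternatives covered the pseudocount, filter, scaling, the libraries fitted and each library left out. List genes with no row under their symbol, such as Meiosin, Rec114 and Meiob, were not analysed here, and Hmgcs1 is listed at 0 in all 4 libraries, which can be a failed estimate. Some genes that the naming rule or the lists include are not reported here.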

Additional observations from a re-analysis of the deposited data

How the results depend on the processing

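Of 1493 calls (604 higher, 889 lower, 332 and 248 at least 2-fold), 697 (307, 390, 165 and 135) were left without the filter on low values, where more genes were tested. With only the 4 libraries fitted, 234 (136, 98, 134 and 92) were called, and with all 12, 5330 (2276 and 3054). Without 1 library of iSC, idSG or mSSC, calls ranged from 10 to 1607, with 3 to 660 higher, 7 to 947 lower, 3 to 425 at least 2-fold higher and 7 to 443 at least 2-fold lower; the lowest came without idSG replicate 1. Without iSC replicate 1, iSC replicate 2, idSG replicate 2, mSSC replicate 1 and mSSC replicate 2 the calls were 147, 1607, 1063, 245 and 239. The X-linked median ranged from -0.019 to 0.16. Pseudocounts of 0.1 and 0.5, a minimum of 5 FPKM, median-ratio and quantile scaling and no trend gave counts within 1.5 times.

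Genes that were not called and changed sign when 1 library was left out were Cxcl1 (-1.996 to 1.05), Dazl (-0.11 to 0.37), Ddx4 (-0.39 to 0.0075), Dmrtb1 (-0.87 to 0.35), Gapdh (-0.23 to 0.031), Gfra1 (-3.24 to 0.11), Id4 (-0.17 to 1.54), Kdr (-0.81 to 0.13), Lyz2 (-0.92 to 1.53), Sox9 (-0.62 to 1.01), Wt1 (-0.54 to 0.22) and Zbtb16 (-1.54 to 1.26), as log2 fold changes. Gapdh was also at 0.057 with quantile normalization. The cause was not tested.

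Same-numbered replicates deviated together by correlations of 0.08, 0.04 and 0.05, which give no sign that the numbers pair the libraries. Such values cannot exclude pairing, since a shared source with a small effect would also give low correlations. With the replicate block 953 genes were called, 522 of them lower.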

Other observations

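Germ cell genes outside the lists, chosen after their values were seen, were also higher in iSC. Dmrtc2, a DM-domain gene of spermatocytes, had 28.3 and 16.96 FPKM in iSC, against 5.66 and 4.52 FPKM in idSG (log2 fold change 1.92 ± 0.26, adjusted p = 0.0172). Zfp541, a zinc-finger gene of spermatocytes, had 10.7 and 6.504 FPKM in iSC and 1.94 and 1.70 FPKM in idSG. Mtl5, which encodes the meiotic protein tesmin, had 16.2 and 9.23 FPKM in iSC and 3.59 and 2.54 FPKM in idSG, and Adad1, an RNA-binding protein gene of the testis, had 38.1 and 28.5 FPKM in iSC and 12.5 and 8.52 FPKM in idSG. All 4 were called and separate between groups, with iSC replicate 1 above iSC replicate 2.

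Foxl2, Hsd17b1 and Fst, also chosen after their values were seen and from no list, were higher in iSC. Foxl2, a transcription factor gene of granulosa cells, had 30.3 and 26.4 FPKM in iSC, against 3.56 and 4.01 FPKM in idSG and 0 FPKM in both mSSC libraries (log2 fold change 2.61 ± 0.19, adjusted p = 0.0036). Hsd17b1, which encodes an estradiol-forming enzyme, had 31.7 and 31.0 FPKM in iSC, against 4.32 and 9.51 FPKM in idSG and 0.278 and 0 FPKM in mSSC. Fst, which encodes the activin-binding protein follistatin, rose to 32.1 and 57.2 FPKM in iSC, against 6.56 and 14.002 FPKM in idSG, but had 35.7 and 26.7 FPKM in mSSC. Of 7 Leydig cell genes, 2 passed the filter and 1 was called higher, the steroidogenic enzyme gene Cyp11a1, with 4.07 and 6.76 FPKM in iSC, against 1.18 and 2.33 FPKM in idSG. The summed Sertoli cell genes were also higher in iSC than in idSG, but Clu alone is a large part of those sums. Clu had 1212 and 2111 FPKM in iSC and 292 and 743 FPKM in idSG. For the Sertoli cell genes Sox9 and Wt1 the groups overlapped. The part of feeder RNA in Foxl2, Hsd17b1, Fst and Cyp11a1 was not tested.

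The metallothionein genes Mt1 and Mt2, chosen in the same way, fell to 52.3 and 129.8, and 74.2 and 109 FPKM in iSC, against 249 and 229, and 259 and 260.3 FPKM in idSG.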
